A study of Mus musculus with 14 samples.

Results

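Von Willebrand factor and 8 further genes by which endothelium governs clotting and clot removal were followed in cells taken from 2 lymphatic sinuses of lymph nodes. The genes were chosen by name (Vwf, F8, F3, Thbd, Procr, Tfpi, Plat, Plau and Plaur), and each was represented by its non-control probe with the highest mean log2 signal over all arrays. All 9 were found among the 34797 gene names of the array, with 14 probes between them. That mean spans all groups, so a group with high signal can decide the choice of probe, as described for Vwf and F3 below.

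Cells came from lymph nodes of C57Bl/6 mice with no allele, treatment, time or age given in the labels. The subcapsular sinus receives the afferent lymph, and the medullary sinus drains towards the efferent vessel. By laser-capture microdissection (LCM), 50 cells per sample were cut from frozen sections of inguinal, axillary and brachial nodes stained for CD31 and F4/80, giving 5 samples from each sinus. By fluorescence-activated sorting (FACS), 1200 cells per sample were taken from digested nodes of those and further sites, stained with a lineage cocktail, anti-CD73 and anti-podoplanin, giving 2 samples from each sinus. The labels do not say whether cells with or without CD73 were kept for each sinus. Microdissection picks a cell by its place and CD31 staining, and a sort picks it by surface antigens alone. The isolations also differed in cell number, node sites and, for most arrays, slide, so these cannot be told apart. Every FACS array lay on slide 2, and every subcapsular LCM array on slide 1. The labels name the samples biological replicates but tie none to an animal or litter, so p-values measure the spread between these samples.

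Each sample was hybridised to 1 single-colour array of 55681 probes, on which brightness, not read depth, sets precision. A value below is log2 of a probe's intensity minus the 75th percentile of its array, so 0 is the brightness of the 75th percentile, and the scale is that of the probe. "Above background" is the scanner software's call. It was made for 50.78% to 69.04% of probes on subcapsular LCM arrays, 67.37% to 75.32% on medullary LCM arrays and 66.3% to 78.99% on FACS arrays. Prox1, the transcription factor that sets lymphatic identity, was above background on all 14 arrays. Lyve1 and Flt4, other lymphatic markers, were each above background on 3 of 5 LCM arrays of either sinus. On the FACS arrays, Lyve1 was above background on 1 of 2 subcapsular and 0 of 2 medullary arrays, and Flt4 on 0 of 2 and 1 of 2. Pdpn (podoplanin), an antigen of the sort, was above background on 1 of 5 subcapsular and 4 of 5 medullary LCM arrays. In FACS it was above background on 1 of 2 subcapsular and 2 of 2 medullary arrays, with means of -5.25 and -0.92. Pecam1 (CD31) had means of 4.18, 4.82 and 4.62 in subcapsular LCM, medullary LCM and subcapsular FACS and of -3.6 in medullary FACS, and Cdh5 (VE-cadherin) was not above background on either medullary FACS array. All 8 B cell markers were above background on every array. In such bulk samples, fewer cells of a type and less RNA per cell cannot be told apart.

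Vessel lining keeps blood and lymph fluid by balancing opposed activities. Endothelial cells store von Willebrand factor in Weibel-Palade bodies and release it as long multimers, which tether platelets and carry coagulation factor VIII. Tissue factor, the product of F3, starts coagulation, while thrombomodulin, the protein C receptor and tissue factor pathway inhibitor restrain it, and the plasminogen activators dissolve fibrin once formed.

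For F8, F3 and Tfpi the array holds several probes whose values differ, so the probe sequences are part of what is reported. They are shown 5' to 3' as the array's design table gives them, in lower case throughout, on mm9. The F8 probe used lies at chrX:72455821-72456709 on the minus strand, where its 60 bases spread over 889 bases of the genome, and the other F8 probe lies at chrX:72577870-72577929 on the same strand. The less bright F3 probe, at chr3:121434609-121435346 on the plus strand, spreads over 738 bases. The Tfpi probe used lies at chr2:84284179-84284238 on the minus strand.
F8, probe used: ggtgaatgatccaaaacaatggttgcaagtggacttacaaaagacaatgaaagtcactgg
F8, other probe: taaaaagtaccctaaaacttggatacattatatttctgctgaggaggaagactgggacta
F3, other probe: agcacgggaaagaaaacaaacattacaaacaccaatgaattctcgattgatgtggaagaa
Tfpi, probe used: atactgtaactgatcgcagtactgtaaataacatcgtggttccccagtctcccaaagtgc

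Vwf, F8 and F3 had higher means in medullary than in subcapsular LCM samples, and Vwf was the one gene of the 9 whose values did not overlap between the sinuses. None of the 9 passed limma's test after Benjamini-Hochberg adjustment over the 27383 genes tested at 0.05, a threshold that 48 genes, or 0.175%, passed. At an unadjusted p under 0.05, 3 of the 9 genes passed, against 11.7% of all genes. F3 was among them with a probe whose choice rested on medullary LCM, the group in which it was higher. Vwf was 1 of 9 genes with every medullary value above every subcapsular one, against 1.03% of all genes. To be tested, a gene had to be above background in at least 3 LCM samples of 1 sinus, which all 9 were. F8, F3, Plat, Plau and Plaur met it only through the medullary sinus, so the direction of their differences was partly fixed by that requirement.

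**Figure D1:**
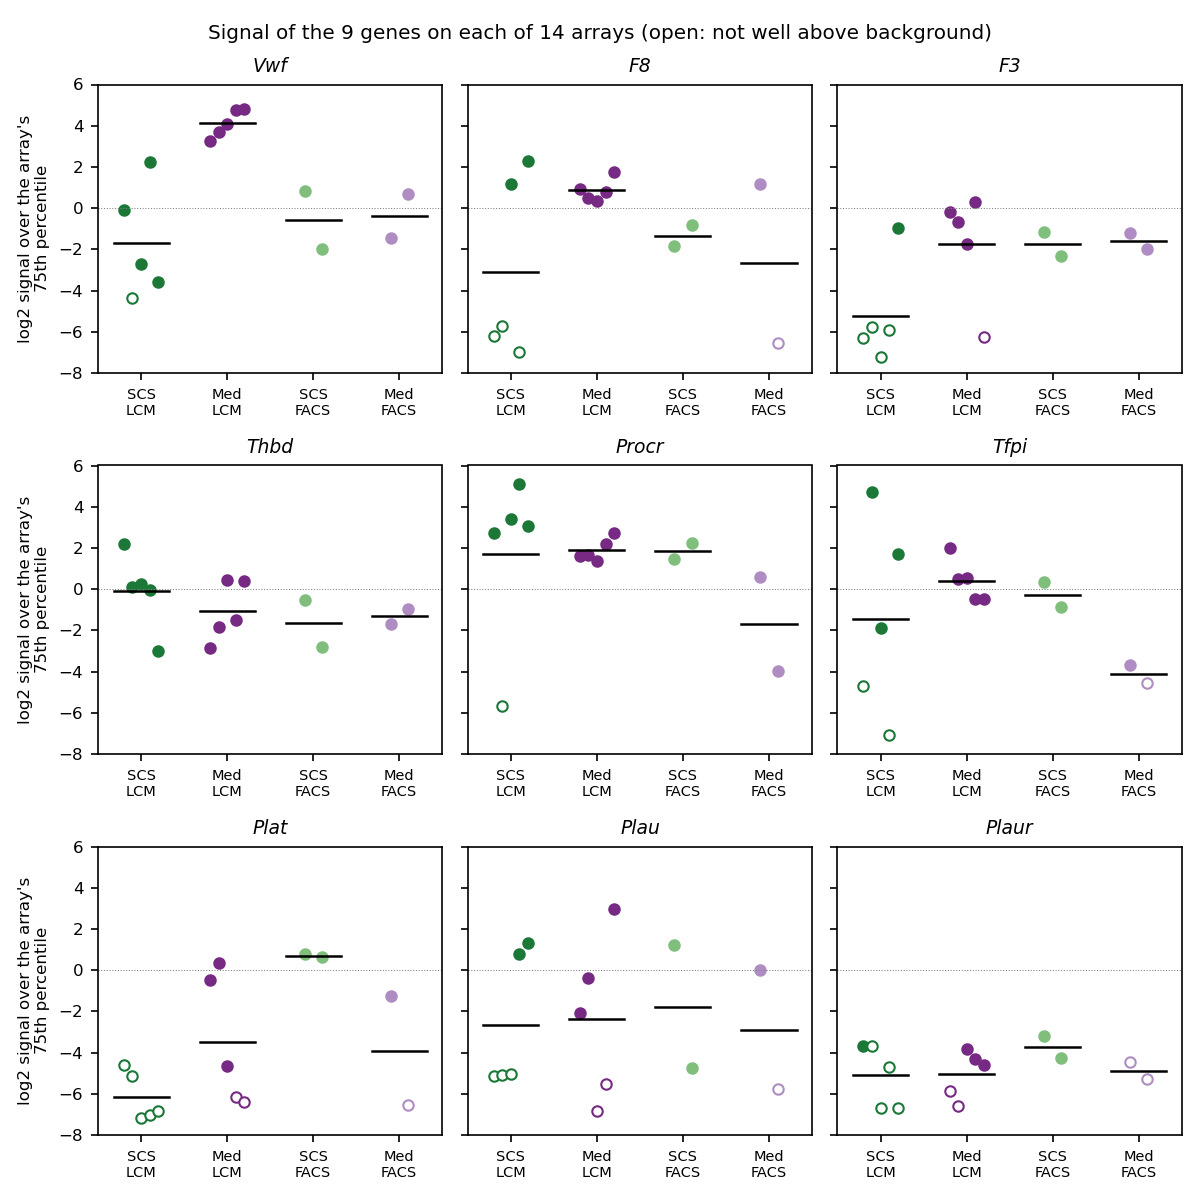
Log2 signal of each gene over the array's 75th percentile (vertical axis) by group: subcapsular sinus (SCS) and medullary sinus (Med), by LCM (5 arrays each) and FACS (2 arrays each). Each point is 1 array, open points are not well above background and bars are group means. The 5 medullary LCM values of Vwf, 3.27 to 4.83, lie above all others of that gene.

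The Vwf probe, at chr6:125636551-125636610 on the plus strand (NM_011708), read -0.11, -4.36, -2.73, 2.26 and -3.6 on subcapsular LCM replicates 1 to 5. On medullary LCM replicates 1 to 5 it read 3.27, 3.69, 4.09, 4.75 and 4.83. The medullary arrays thus lay close together and above all subcapsular arrays, which were widely spread, with replicate 4 highest and replicate 2 not above background. The means were -1.71 ± 2.74 and 4.13 ± 0.67 (SD, n = 5 each), a difference of 5.84 on the log2 scale (SE 1.16), or 57.1-fold. Its unadjusted p was 0.000402 and its limma adjusted p 0.0973, which placed it 111th among the genes tested. The exact permutation test over the 10 arrays, two-sided, gave p = 0.00794, the smallest that 5 against 5 allows.

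Slide and sinus overlapped in part, since slide 1 held the 5 subcapsular arrays and medullary replicates 1 to 3. Within slide 1 the Vwf difference was 5.39 (exact permutation p = 0.0357, two-sided, 5 against 3 arrays). Within the first row of array positions it was 6.03, and within the second row, with 1 subcapsular array, 7.29. Without subcapsular replicate 4, the highest of its group, the difference was 6.83 and passed the threshold (limma adjusted p = 0.0255). Leaving out any other LCM array gave a difference no lower than 5.17 and no adjusted p below the threshold, and scaling to the percentile of only those probes detected throughout gave 6.57 (limma adjusted p = 0.0451).

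A second Vwf probe, at chr6:125542106-125542165 (ENSMUST00000112253), was above background on all 14 arrays and showed a smaller difference. It read from -2.5 to -0.37 in subcapsular LCM, from -1.56 to 0.67 in medullary LCM, -1.51 and -1.2 in subcapsular FACS and -0.21 and -0.89 in medullary FACS. The LCM ranges overlapped, and the difference was 1.15 (SE 0.64; limma adjusted p = 0.521 over probes). The size of the Vwf difference is thus that of 1 probe, and averaging both probes gave 3.49 (limma adjusted p = 0.0599). The probe used and the second probe had means of -1.71 and -1.69 in subcapsular LCM and of 4.13 and -0.54 in medullary LCM. The choice by overall mean thus leaned on medullary LCM.

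In the sorted cells, no such Vwf difference was seen. Subcapsular FACS replicates 6 and 7 read 0.85 and -1.97, and medullary FACS replicates 6 and 7 read -1.47 and 0.7. The groups overlapped fully, and all 4 values lay below the lowest medullary LCM value. The difference was 0.17 (SE 1.38; limma adjusted p = 0.932). In descending order of mean level the groups were medullary LCM, medullary FACS (-0.39), subcapsular FACS (-0.56) and subcapsular LCM, and no 2 neighbours below medullary LCM differed beyond their spread. The FACS difference less the LCM difference (the interaction, fitted over all 14 arrays) was -5.67 (SE 1.92; unadjusted p = 0.0115; limma adjusted p = 0.135).

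F8 encodes factor VIII, the cofactor that circulates bound to von Willebrand factor and that in mice is made by endothelium. Medullary LCM replicates 1 to 5 read 0.91, 0.48, 0.37, 0.78 and 1.77, all above background. Subcapsular LCM replicates 3 and 5 read 1.15 and 2.3, while replicates 1, 2 and 4, at -6.2, -5.72 and -6.98, were not above background. The subcapsular arrays thus fell into a bright pair, the higher of which exceeded every medullary array, and a dark set. The means were -3.09 ± 4.44 and 0.86 ± 0.55 (SD, n = 5 each), a difference of 3.95 (SE 1.77; unadjusted p = 0.0479; limma adjusted p = 0.423). The exact permutation p was 0.159, two-sided. Within slide 1 the difference was 3.68 and within the first row 5.71. Within the second row, where the bright replicate 5 was the only subcapsular array, the difference was -1.71.

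F8 in the FACS samples read -1.82 and -0.84 in the subcapsular sinus and 1.19 and -6.55 in the medullary sinus, the last not above background. The medullary values lay on either side of the subcapsular ones, and the difference was -1.35 (SE 2.83; limma adjusted p = 0.736). The other F8 probe printed above was above background on 5 of 14 arrays, none of them subcapsular. It was above background on 3 of 5 medullary LCM and 2 of 2 medullary FACS arrays. Its fitted LCM difference was 0.01 (limma adjusted p = 0.999 over probes), with no subcapsular LCM array above background. Its FACS difference of 1.56 (limma adjusted p = 0.187 over probes) ran opposite to that of the probe used.

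F3 encodes tissue factor, the membrane receptor for factor VII that triggers coagulation and is usually low in resting endothelium. The probe used lies at chr3:121437717-121437776 (NM_010171). Subcapsular LCM replicates 1 to 5 read -6.32, -5.77, -7.23, -5.92 and -0.98, of which the last alone was above background. Medullary LCM replicates 1 to 5 read -0.21, -0.69, -1.76, 0.31 and -6.23, of which the last alone was not. Each sinus thus held 1 array that read like most of the other sinus. The difference was 3.53 (SE 1.44; unadjusted p = 0.0329; limma adjusted p = 0.388), and the exact permutation p was 0.0794, two-sided.

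The sorted F3 values were -1.15 and -2.34 in subcapsular and -1.2 and -1.99 in medullary samples. All 4 were above background and overlapped, with a difference of 0.15 (SE 0.74; limma adjusted p = 0.89). The other F3 probe, with its bases spread over 738 bases of the genome, was above background on all 14 arrays and showed no such LCM difference. It read -3.77 to -2.31 in subcapsular and -3.83 to -2.25 in medullary LCM samples, a difference of -0.33 (SE 0.53; limma adjusted p = 0.85 over probes). Its direction was therefore opposite to that of the probe used. Over all 14 arrays the probe used had a mean of -2.96 and the other F3 probe -3.1. The probe used was brighter in medullary LCM (-1.72 against -3.33) and in both FACS groups, and dimmer in subcapsular LCM (-5.24 against -3). Its choice thus rested on medullary LCM, since without those arrays the other probe had the higher mean.

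**Figure D2:**
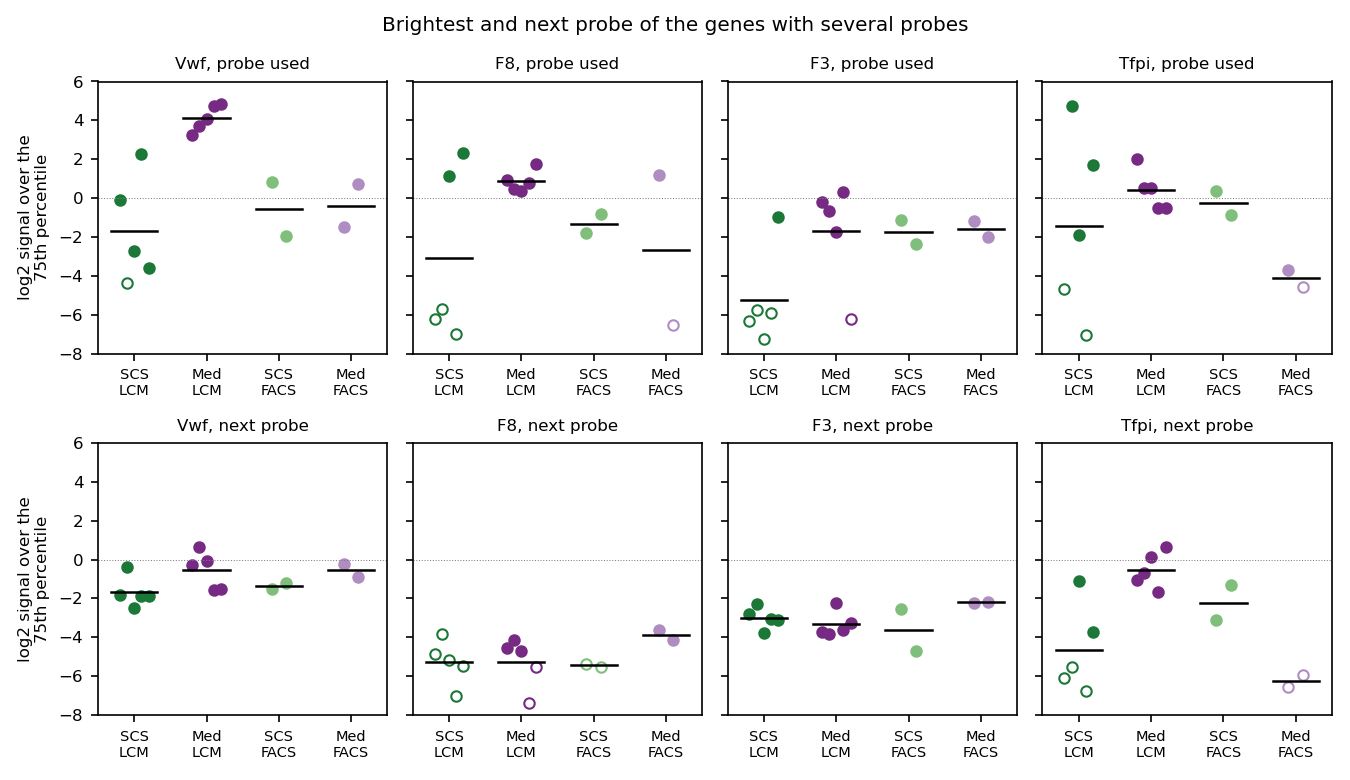
Log2 signal over the array's 75th percentile for the probe used (upper row) and the next brightest probe (lower row) of the 4 genes with several probes, by group (SCS, subcapsular; Med, medullary). Each point is 1 array, open points are not well above background and bars are means. The LCM difference of Vwf is 5.84 with the probe used and 1.15 with the next, and that of F3 is 3.53 and -0.33.

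The anticoagulant genes Thbd, Procr and Tfpi were above background on most arrays, and none passed the test between the sinuses in LCM. Thbd encodes thrombomodulin, which binds thrombin and turns it towards protein C, and its probe lies at chr2:148230235-148230294. It read 2.19, 0.11, 0.27, -0.05 and -2.99 on subcapsular and -2.87, -1.82, 0.46, -1.49 and 0.38 on medullary LCM replicates 1 to 5. It was the one gene of the 9 with a lower medullary mean, by -0.97 (SE 0.99; limma adjusted p = 0.751). The ranges overlapped over most of their length, and all 14 arrays were above background. Sorted samples read -0.52 and -2.8 in the subcapsular and -1.67 and -0.96 in the medullary sinus, a difference of 0.34 (SE 1.01; limma adjusted p = 0.811).

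Procr encodes the endothelial protein C receptor, which presents protein C to the thrombin-thrombomodulin complex, and its probe lies at chr2:155580945-155581004. Subcapsular LCM replicates 1, 3, 4 and 5 read 2.73, 3.38, 5.08 and 3.08, and replicate 2 read -5.67, not above background. Medullary LCM replicates 1 to 5 read 1.6, 1.68, 1.37, 2.19 and 2.74. The near-equal means, 1.72 ± 4.23 and 1.92 ± 0.55 (SD, n = 5 each), thus rest on the 1 dark subcapsular array, since the other subcapsular values lay at or near the top of the medullary range or above it. The difference was 0.2 (SE 1.69; limma adjusted p = 0.978), and -1.65 without subcapsular replicate 2.

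In FACS, Procr read 1.46 and 2.25 in subcapsular and 0.58 and -3.99 in medullary samples. Both medullary values lay below both subcapsular ones, with a difference of -3.56 (SE 1.74; limma adjusted p = 0.222). The exact permutation test of 2 against 2 arrays cannot give a p below 0.333.

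Tfpi encodes tissue factor pathway inhibitor, which blocks factor Xa and the complex of tissue factor with factor VIIa. Subcapsular LCM replicates 1 to 5 read -4.68, 4.73, -1.89, -7.07 and 1.69, the widest range of the 9 genes in any group (11.8). Medullary LCM replicates 1 to 5 read 2, 0.5, 0.54, -0.5 and -0.49, within the subcapsular range. The difference was 1.85 (SE 1.92; limma adjusted p = 0.754).

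Tfpi was the gene of the 9 with the lowest FACS p. It read 0.35 and -0.88 in subcapsular and -3.68 and -4.56 in medullary samples, the last not above background. The medullary values were both lower, by -3.86 (SE 0.77; unadjusted p = 0.00751; limma adjusted p = 0.0925). A second probe of the same transcript, at chr2:84273059-84273118, showed the same order of group means, with sinus differences that lay further apart between isolations. It read -6.09, -5.53, -1.11, -6.77 and -3.72 on subcapsular and -1.06, -0.71, 0.14, -1.68 and 0.65 on medullary LCM replicates 1 to 5. In FACS it read -3.1 and -1.33 in the subcapsular and -6.56 and -5.94 in the medullary sinus, where neither array was above background.

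With that second probe, the medullary LCM mean was higher by 4.11 (SE 1.04; limma adjusted p = 0.209 over probes). The medullary FACS level was lower by a factor of 5.3 with its arrays at a background limit (limma adjusted p = 0.0988 over probes). Factors of this kind, here and below, were taken where 1 group had no array above background. That group's arrays were set to the lowest signal called above background, or to the probe's own where that was higher. Such a factor is no strict bound, since a probe not above background can read higher than that signal. Plaur did so on subcapsular LCM replicate 2, at -3.7 against -4.46. The other group was left as read, and the p-values are those of the fitted differences. The difference between those 2 sinus differences was -8.15 (SE 1.61) and passed the threshold over the 45687 probes tested (limma adjusted p = 0.031), which 1.15% of probes did. With the dark medullary FACS arrays raised to their background limit it was -6.52. For the Tfpi probe used, the same contrast was -5.71 (SE 2.84; limma adjusted p = 0.261). This fit over single probes was added after values had been seen. The second probe met the requirement for testing only through medullary LCM and subcapsular FACS, which partly fixed the direction of its contrast. A further Tfpi probe, at chr2:84281022-84281081, was above background on 3 of 14 arrays and was not tested.

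Plat, which encodes tissue-type plasminogen activator, was dark on all subcapsular LCM arrays and bright on both subcapsular FACS arrays. Its probe lies at chr8:23892531-23892590. No subcapsular LCM array was above background, with readings of -4.6, -5.12, -7.19, -7.01 and -6.83. Medullary LCM replicates 1 to 3 read -0.46, 0.34 and -4.66 and were above background, and replicates 4 and 5, at -6.16 and -6.42, were not. The fitted difference was 2.68 (SE 1.37; limma adjusted p = 0.482; exact permutation p = 0.143, two-sided). With the subcapsular arrays at their background limit, the medullary mean was 2.74-fold higher. That value is no strict bound either, and medullary replicates 4 and 5 were left as read.

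The detected medullary LCM arrays were those of slide 1, and the dark ones those of slide 2. Within slide 1 the Plat difference was 4.56 (exact permutation p = 0.0357, two-sided), and within the first row, which pairs the slide 2 medullary arrays with 4 subcapsular ones, it was -0.31. The part of the slide in the Plat values was not tested.

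Sorted subcapsular samples read 0.77 and 0.64 for Plat, above every LCM array. Sorted medullary samples read -1.26 and -6.56, the last not above background, so the FACS order was the reverse of that in LCM, with a difference of -4.62 (SE 1.96; limma adjusted p = 0.189). The interaction was -7.3 (SE 2.42; unadjusted p = 0.0101; limma adjusted p = 0.13), or -6.08 with the dark LCM arrays at their background limit. Averaged over sinuses, Plat was higher in FACS than in LCM by 3.21 (SE 1.21; limma adjusted p = 0.196). With single arrays left out, the interaction ranged from -9.95 to -4.65 and the difference between isolations from 1.89 to 4.54. The interaction was -9.95 without medullary FACS replicate 6, and the difference between isolations was 4.54 without medullary FACS replicate 7. These 2 values passed the threshold, but each rests on 1 medullary FACS array.

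Plau, which encodes urokinase, was split between bright and dim arrays in every group. Its probe lies at chr14:21662242-21662301. Subcapsular LCM replicates 1 to 5 read -5.16, -5.08, -5.04, 0.78 and 1.3, and medullary LCM replicates 1 to 5 read -2.08, -0.37, -6.85, -5.51 and 2.98. Above background were 2 of 5 subcapsular and 3 of 5 medullary arrays. The ranges overlapped throughout, and the difference was 0.28 (SE 2.04; limma adjusted p = 0.974). In FACS the pair of subcapsular arrays read 1.23 and -4.77 and the medullary pair 0 and -5.76 (difference -1.11, SE 3; limma adjusted p = 0.795).

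Plaur, which encodes the receptor that holds urokinase at the cell surface, was dim throughout. Its probe lies at chr7:25260569-25260628. Above background were 1 of 5 subcapsular and 3 of 5 medullary LCM arrays, and the values ranged from -6.7 to -3.69 and from -6.58 to -3.85. The ranges almost coincided, and the difference was 0.05 (SE 0.83; limma adjusted p = 0.988). Subcapsular FACS arrays read -3.21 and -4.27, and medullary FACS arrays, at -4.47 and -5.3, were not above background. With the medullary arrays at their background limit, the medullary FACS mean was lower by a factor of 1.74. The fitted difference of -1.15 did not pass (limma adjusted p = 0.306).

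**Figure D3:**
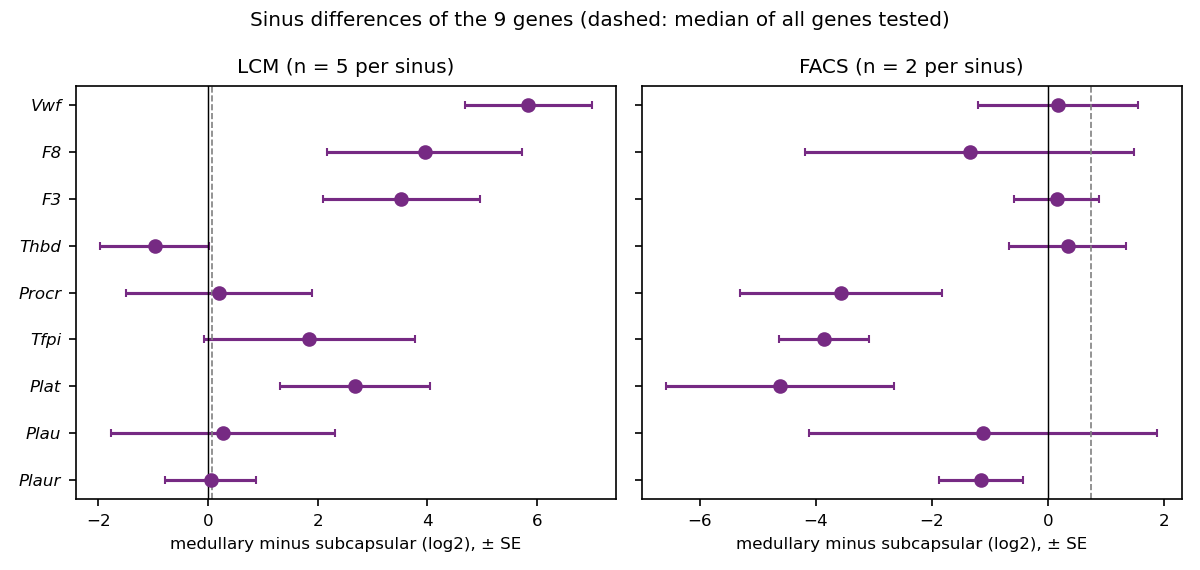
Medullary minus subcapsular difference in log2 signal (horizontal axis) for the 9 genes in LCM (left) and FACS (right), with limma standard errors. The dashed line is the median of all genes tested, 0.08 in LCM and 0.74 in FACS. Vwf stands at 5.84 in LCM and 0.17 in FACS, and no gene passed the adjusted threshold in either.

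Over the 9 genes, 8 had a higher medullary mean in LCM, against 52.6% of all genes, with a median difference of 1.85 against 0.08 over all genes. Above background on more medullary than subcapsular LCM arrays were 8 of 9 genes, against 36.3% of all genes, and on more subcapsular arrays 0 of 9, against 5.6%. F8, F3, Plat, Plau and Plaur entered the test only through the medullary sinus. That fixed their side in this count and partly fixed the direction of their means. The number of the 9 above background per array was 4, 2, 5, 4 and 7 in subcapsular and 8, 8, 8, 7 and 7 in medullary LCM replicates 1 to 5. Subcapsular replicate 2 had both the fewest of these genes and the lowest share of all probes above background, 50.78%. The part of this overall dimness in the differences of single genes was not tested.

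In FACS, 3 of the 9 had a higher medullary mean, against 59.5% of all genes, and 6 a lower one (median -1.15, against 0.74 over all genes). None of the 9 was called by limma, as for all 27668 genes tested (0%), while at an unadjusted p under 0.05 Tfpi alone passed, 1 of 9 against 31.9% of all genes. The sinus groups did not overlap for 4 of 9 (Procr, Tfpi, Plat and Plaur), each lower in the medullary sinus, against 26.7% of all genes in that direction. Above background on more subcapsular than medullary arrays were 5 of 9, against 13.7% of all genes. These were F8, Tfpi, Plat, Plau and Plaur, which entered the test only through the subcapsular sinus. Medullary FACS replicate 7 had 4 of the 9 above background, and the other FACS arrays had 8 or 9. Sinus and row position on the slide coincided in the FACS samples and cannot be told apart.

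Between isolations, with sinuses weighted equally, none of the 9 was called by limma, against 3.86% of all 29692 genes tested. Plat alone had an unadjusted p under 0.05, against 16.1% of all genes. Vwf differed by -1.68 (SE 0.96; limma adjusted p = 0.436) and F3 by 1.81 (SE 1.07; limma adjusted p = 0.457). For the interaction, none of the 9 was called, against 1.3% of all genes, and Vwf and Plat had an unadjusted p under 0.05, 2 of 9 against 21.3%. Every LCM and FACS sample enters both contrasts, so they are not separate evidence. Of the LCM arrays, medullary replicates 4 and 5 alone shared slide 2 with the FACS arrays. Isolation and slide thus cannot be told apart for the other arrays.

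No other gene of coagulation or fibrinolysis on the lists was called between the sinuses in LCM. For the counts of this and the following lists, 52.6% of all genes tested in LCM had a higher medullary mean. In LCM 0.175% were called and 11.7% had an unadjusted p under 0.05. The same shares in FACS were 59.5%, 0% and 31.9%. Of 18 coagulation factors and cofactors, 10 could be tested in LCM, of which 7 had a higher and 3 a lower medullary mean (median 1.21, against 0.08 over all genes). None was called, and 2 had an unadjusted p under 0.05. These were Fgb, the fibrinogen beta chain, at 2.76 (SE 0.97; limma adjusted p = 0.326) and Mcfd2, which with Lman1 carries factor VIII out of the endoplasmic reticulum, at -1.25 (SE 0.52; limma adjusted p = 0.391).

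Of 16 anticoagulant genes, 13 were tested in LCM, 5 higher and 8 lower (median -0.41), with none called and 4 at an unadjusted p under 0.05. Sdc4, a heparan sulfate proteoglycan, was lower by -2.26 in LCM without overlap (SE 0.59; limma adjusted p = 0.212) and by -2.74 in FACS (limma adjusted p = 0.104). Nt5e, the ecto-enzyme CD73 that makes adenosine, was higher by 4.2 in LCM (limma adjusted p = 0.212). Its product was an antigen of the sort, so its FACS values are no finding.

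Of 16 plasminogen system genes, 13 were tested in LCM, 10 higher and 3 lower (median 0.74), with none called and 4 at an unadjusted p under 0.05. Anxa2, a cell surface receptor for plasminogen and tissue-type plasminogen activator, had means of -4.34 and -1.14 in subcapsular and medullary LCM (limma adjusted p = 0.362) and of 0.68 and -5.4 in FACS. The medullary FACS arrays were not above background for it. Its interaction, -9.28 (SE 1.84; limma adjusted p = 0.0317), passed the threshold, and was -8.48 with those arrays at their background limit. Anxa2 met the requirement for testing only through medullary LCM and subcapsular FACS, which partly fixed that direction. Its sinus order by isolation was thus that of Plat. Vtn, vitronectin, which binds the inhibitor of both activators, was higher by 4.2 in LCM (SE 1.65; limma adjusted p = 0.373).

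Thrombin and protease receptors with their signalling partners numbered 8, of which 7 were tested in LCM, 4 higher and 3 lower (median 0.54), with none called and none at an unadjusted p under 0.05. In FACS, 2 were higher and 6 lower (median -2.4, against 0.74 over all genes). Again none was called, and 4 of 8 had an unadjusted p under 0.05, against 31.9% of all genes.

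Genes of the Weibel-Palade body and of von Willebrand factor handling were split in direction. Of 21 listed genes, 19 were tested in LCM, 12 higher and 7 lower (median 0.61), with 1 called and 5 at an unadjusted p under 0.05. The gene called was Angpt2, which encodes angiopoietin-2, a growth factor stored beside von Willebrand factor. It was above background on all 5 medullary and 0 of 5 subcapsular LCM arrays, with means of 0.96 and -5.3 (limma adjusted p = 0.023). With the subcapsular arrays at their background limit, its medullary level was 52.1-fold higher. In FACS it was above background on both subcapsular and neither medullary array, and its interaction was -8.31 (SE 1.2; limma adjusted p = 0.00782), or -7.74 with dark arrays at their background limit. Angpt2 met the requirement for testing only through medullary LCM and subcapsular FACS, which partly fixed the direction of its LCM difference and interaction. Cd63, a membrane protein of the same granule and of other late endosomal organelles, was lower in medullary LCM without overlap, by -2.69 (SE 0.57; limma adjusted p = 0.128). Cd63 was also lower in FACS than in LCM, by -2.83 (SE 0.58; limma adjusted p = 0.0146).

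Vwf is abundant in blood endothelium, in megakaryocytes and in platelets, so their markers are given beside it. Of 20 genes of blood endothelium and high endothelial venules, all tested in LCM, 16 had a higher and 4 a lower medullary mean (median 1.92), with 3 called and 8 at an unadjusted p under 0.05. The genes called were Fut7, which makes selectin ligands (6.76, limma adjusted p = 0.00386), Darc, a chemokine-binding receptor of venules (5.44, limma adjusted p = 0.0163), and Chst4, a sulfotransferase of high endothelial venules (4.47, limma adjusted p = 0.0472). The summed level of the list spanned 6.43 to 8.63 in subcapsular LCM, 7.99 to 8.63 in medullary LCM, 6.65 to 8.05 in subcapsular FACS and 4.21 to 5.92 in medullary FACS. Of the 20 genes, 15 to 18 were above background on a subcapsular LCM array and 18 or 19 on a medullary one. Selp was above background on 0 of 5 subcapsular and 3 of 5 medullary LCM arrays, and Emcn on 2 of 5 and 5 of 5. Of all genes, 36.3% were above background on more medullary than subcapsular LCM arrays. Among the genes with a lower medullary LCM mean were Cldn5 (-2.51, limma adjusted p = 0.3), Sele (-2.31, 0.613) and Kdr (-0.65, 0.691). In FACS, 19 were tested, 6 higher and 13 lower in the medullary sinus (median -1.31, against 0.74 over all genes), with none called. The part of blood endothelial cells in the Vwf values was not tested.

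Of 12 platelet and megakaryocyte genes, 8 were tested in LCM, 5 higher and 3 lower (median 0.37), with none called and 1 at an unadjusted p under 0.05. Their summed level spanned 2.7 to 4.55 in subcapsular LCM, 3.15 to 5.04 in medullary LCM, 2.56 to 3.67 in subcapsular FACS and 3.94 to 4.3 in medullary FACS, so the LCM ranges overlapped over most of their length. Pf4, a chemokine of platelet granules, was above background on 0 of 5 subcapsular and 4 of 5 medullary LCM arrays. Its fitted difference was 4.82 (SE 1.28; limma adjusted p = 0.212). With the subcapsular arrays at their background limit and the dark medullary array as read, its medullary mean was 7.92-fold higher. Gp9 was above background on 0 of 5 subcapsular and 1 of 5 medullary LCM arrays, Gp1ba on 1 of 5 and 2 of 5, Ppbp on 2 of 5 in each sinus, and Itga2b on all arrays. The part of platelets in the Vwf values was not tested. Gp1bb was higher in FACS than in LCM by 2 (SE 0.48; limma adjusted p = 0.0353).

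Pan-endothelial genes had higher means in medullary LCM and mostly lower ones in medullary FACS. All 8 had a higher mean in medullary LCM (median 1.75), with none called and 3 at an unadjusted p under 0.05. Esam, an adhesion molecule of endothelial junctions, was higher by 3.78 (SE 0.64; limma adjusted p = 0.053). In FACS, 6 of 8 were lower in the medullary sinus (median -2.87), and the summed level spanned 0.69 to 2.79 there against 4.19 to 5.65 in subcapsular FACS. Procr, Tfpi, Plat and Plaur were lower in the same samples, and the part of endothelial content in that was not tested.

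**Figure D4:**
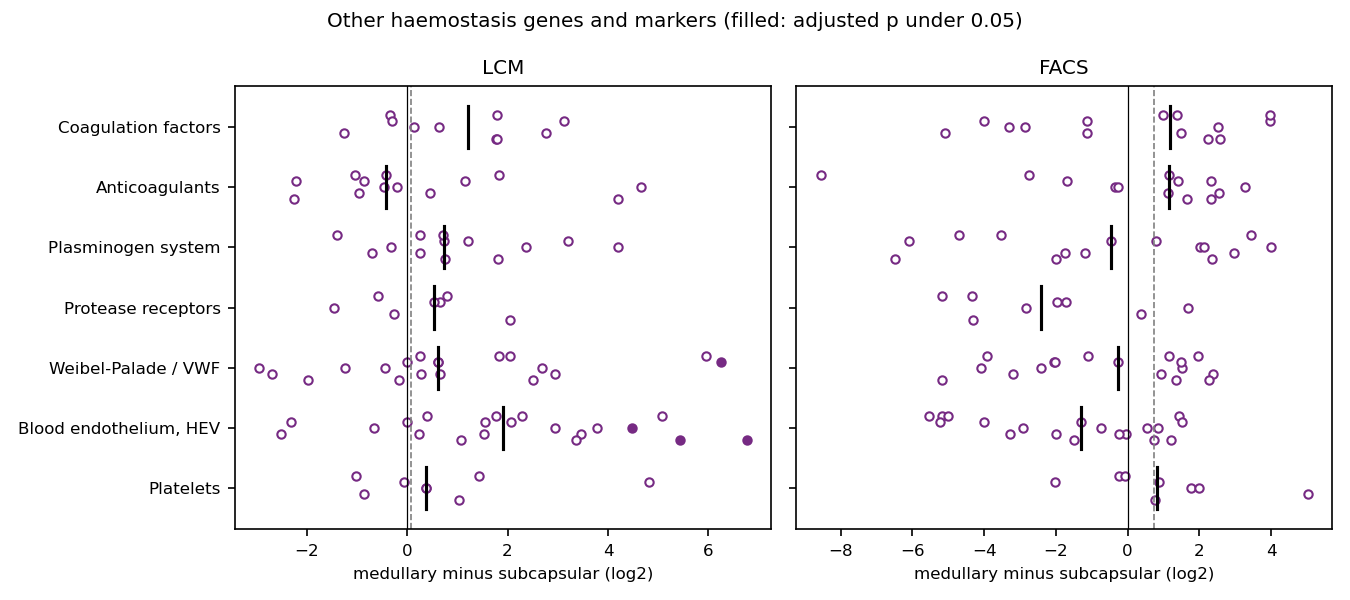
Medullary minus subcapsular difference in log2 signal (horizontal axis) for the tested genes of 7 lists in LCM (left) and FACS (right). Each circle is 1 gene, filled where limma's adjusted p was under 0.05, thick bars are list medians and the dashed line is the median of all genes tested. In LCM, Angpt2 is the filled gene of the Weibel-Palade list and 3 are filled among genes of blood endothelium, whose median is 1.92.

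Macrophage and B cell genes mostly had lower medullary means in LCM. Of 14 macrophage and monocyte genes tested, 13 were lower in the medullary sinus (median -1.19), and of 8 B cell genes all 8 were (median -1.37). None was called, and 6 and 5 had an unadjusted p under 0.05, against 11.7% of all genes. Fibroblastic and mural cell genes had 4 higher and 7 lower (median -0.59), T cell genes 6 higher and 1 lower (median 1.17), and lymphatic endothelial genes 2 higher and 5 lower (median -0.62), with none called in any of these lists and 4, 2 and 1 at an unadjusted p under 0.05.

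Likeness to Vwf was measured by correlation. Over the 10 LCM arrays and among 25613 genes above background on at least 5 of them, the named genes with the highest Pearson correlation with Vwf were Trp53rk (0.957), Gnao1 (0.944), Nrn1 (0.94), Inmt (0.926) and Catsperg1 (0.913). These arrays share the sinus difference, the amplification and the slides, and the correlations are a description without a test. The correlation of Vwf with F3 was 0.394, with Procr 0.372, with F8 0.257, with Plau 0.141, with Thbd -0.0602 and with Tfpi -0.227. Plat and Plaur were above background on too few LCM arrays to be included. For F8, the closest were Agtpbp1 (0.983), Klra22 (0.982), Omg (0.979), Cnpy4 (0.97) and Klra7 (0.97), and they share its split into bright and dark subcapsular arrays.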

How the data were processed

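Arrays were single-colour, on 2 slides, and per the file headers were read with Agilent Feature Extraction 10.7.3.1. Each deposited scanner file holds every spot's intensity after background adjustment, unscaled between arrays. A deposited table of the authors' log2 values, whose median is 5.43 on each array and whose making is not given in the sources used here, served as an alternative. Probe positions are those of the file headers on mm9, and no annotation of exons was used here.

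Intensities were log2 transformed and each array's 75th percentile over non-control probes was subtracted. Spots marked as outliers (0.0149% of values) were left out. A gene is a name in the files. A gene was tested when its probe was above background on 3 of 5 LCM or 2 of 2 FACS arrays of a sinus. Sinus differences are medullary minus subcapsular. Models were fitted by lmFit and eBayes of limma (3.58.1, under R 4.3.3), with array weights by isolation in the fits over 14 arrays, and adjusted by Benjamini-Hochberg at 0.05. A summed marker level is log2 of the summed linear values of a list. The scripts were tested on simulated data. Slide, row, replicate block, scaling, filter, probe choice and single arrays left out were tried as alternatives. Replicates are numbered alike in both sinuses, but same-numbered samples did not deviate together (correlations of -0.0206 to 0.00496 in LCM and -0.0108 in FACS).

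All 9 genes are named. From the 13 lists of related genes and cell markers, the genes called and the 2 with the lowest LCM p were open to naming. Defining markers of lymphatic and blood endothelium and of platelets (such as Prox1, Emcn, Selp, Gp9, Gp1ba, Ppbp and Itga2b) are given besides as a check of cell type. Cldn5, Sele and Kdr are named as genes of blood endothelium that went the other way in LCM. Genes and lists were chosen with earlier results of these data known. Of 167 listed genes, Ccl21a, Clca3a1, Ly6c2 and Trac were not matched by name and not analysed, and Ackr1, Ackr4, Adgre1 and Plgrkt were found under older names.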

Additional observations from a re-analysis of the deposited data

Results flagged for a closer look

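In 18 groups of 5 LCM arrays (9 genes in 2 sinuses), the highest or lowest array was compared with the rest by Dixon's ratio of gap to range, which chance puts past its limit in about 1 group in 20. F3 on subcapsular LCM replicate 5 read -0.98, against -7.23 to -5.77 on the other 4 arrays, a ratio of 0.766 against a limit of 0.71. Procr on subcapsular LCM replicate 2 read -5.67, against 2.73 to 5.08 on the others, a ratio of 0.781. Subcapsular replicate 2 had the lowest share of probes above background of the 14 arrays, 50.78%, and replicate 5 the highest of its group, 69.04%.

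The sinus difference of the second Tfpi probe differed between isolations by -8.15 (limma adjusted p = 0.031 over probes), with a higher medullary mean in LCM and a lower one in FACS. The probe met the requirement for testing only through medullary LCM and subcapsular FACS, which partly fixed this direction. The fit was added after values had been seen.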

How the results depend on the processing

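Over all alternatives, 667 of 732 values of the 9 genes kept direction and side of the threshold, 5 passed it (given with Vwf, Plat and Tfpi above), 60 changed sign and none lost a call. Over its alternatives the Vwf LCM difference ranged from 1.15, with its other probe, to 6.83 (limma adjusted p = 0.0255 to 0.521). The count of 48 genes called in LCM became 8 with normexp background correction, 15 with quantile normalization, 225 with the percentile of probes detected throughout, 16 in the deposited table, 104 with the filter on all 5 arrays of a sinus, 127 with the slide and 14 with the row as a block, and 212 on slide 1 alone. With a replicate block it was 0, and Vwf stayed at 5.84 (limma adjusted p = 0.242). No sample was most like its own number. The FACS count of 0 became 1813 with trended robust eBayes and 899 in a joint fit of the 14 arrays. The count of 1147 between isolations became 747 with equal array weights and 260 on slide 2 alone, and the interaction count of 386 became 694 (normexp), 1155 (quantile), 1143 (deposited table) and 109 (equal weights). Leaving out 1 array gave 23 to 104 in LCM (23 without medullary replicate 2, and 97, 104 and 100 without medullary replicates 4 and 5 and subcapsular replicate 5), 0 to 0 in FACS, 613 to 1665 between isolations and 11 to 1278 for the interaction. Scaling moved the median LCM difference of all genes from 0.08 to -0.16 (normexp), -0.01 (quantile, deposited) and 0.81 (percentile of probes detected throughout).

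Signs changed for values near 0 or with several probes. In LCM, Plau became -0.05 (normexp), -0.1 (quantile, deposited), -0.46 (slide block, slide 1 alone) and -0.07 (row block), Plaur -0.31, -0.73 (quantile), -0.74 (deposited) and -0.34 (slide block, slide 1 alone), Procr -0.56 (normexp) and -0.17 (slide block, slide 1 alone), and F3 -0.33 with its other probe. In FACS, F8 became 0.41 (normexp), 0.1 (mean of probes) and 1.56 (other probe), Plaur 0.24 (normexp), and with quantile and deposited values F3 became -0.2 and -0.19, Thbd -0.16 and -0.14, and Vwf -0.25 and -0.24. Between isolations, Plau became -0.13 (normexp) and -1.62 (slide 2 alone), Plaur -0.01 (quantile) and -0.44 (slide 2 alone), and with other probes Vwf became 0.16 and F8 0.6. The interaction became 0.55 for Plaur (normexp), and with other probes 1.55 for F8 and 1.78 for F3. Without single arrays, LCM differences spanned -0.35 to 1.4 for Plau, -0.35 to 0.44 for Plaur and -1.65 to 1.04 for Procr. FACS differences then spanned -0.44 to 0.74 for F3, -5.23 to 2.52 for F8, -4.1 to 1.89 for Plau, -0.79 to 1.48 for Thbd and -1.24 to 1.58 for Vwf. Between isolations F8 spanned -2.83 to 1.05 and Plau -1.32 to 1.68, and the Plau interaction -4.38 to 1.61. Beyond the arrays and probes named, the cause was not tested. The number of arrays, and signal near background on many subcapsular LCM arrays, limit what could be detected.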
